A study of Mus musculus with 45 samples.

Results

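The 10 mouse genes described here, markers of the heart and the lateral mesoderm, were chosen by symbol and followed through 45 RNA-seq libraries of differentiating embryonic stem cells (ESCs), out of 35372 annotated genes counted in each library. The 10 members were Tnnt2, Myh6 and Myl7, which encode parts of the contractile apparatus of heart muscle; Nkx2-5, Tbx5, Mef2c and Isl1, which encode transcription factors of the forming heart; and Hand1, Hand2 and Foxf1, which encode transcription factors of the lateral mesoderm. All libraries came from wild-type male E14tg2a ESCs of the 129/Ola strain, maintained before differentiation either in 2iL, the serum-free N2B27 medium with LIF and the inhibitors CHIR99021 and PD0325901, or in SL, serum with LIF. Differentiation then took 1 of 3 forms: suspension culture in serum without LIF, which gives embryoid bodies (EBs); adherent culture in N2B27 with Fgf2 and Activin A (FA); and adherent culture in N2B27 with neither (serum-free). There was 1 library per medium, condition and day, at days 1, 1.5, 2, 2.5, 3, 5 and 7, with 3 day 0 libraries of 2iL ESCs and 1 of SL ESCs, so 23 libraries came from 2iL and 22 from SL. FA from 2iL at day 5 was not analysed here. All cells were of a single line, and the labels name no separate cultures, so the p-values given here measure only the spread between these libraries, which may be technical.

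In the embryo, mesoderm forms from the epiblast in the primitive streak under the control of T and Eomes, and cells that leave the streak early give rise to extraembryonic, lateral plate and heart mesoderm. Hand1 and Hand2 are related basic helix-loop-helix factors of the heart chambers and the lateral plate, Foxf1 marks the lateral plate that lines the gut and the extraembryonic mesoderm, and Nkx2-5, Tbx5, Mef2c and Isl1 act in heart progenitors before the contractile genes Tnnt2, Myh6 and Myl7 are switched on. Several of the 10 genes also serve elsewhere: Hand1 is active in trophoblast, Isl1 in motor and sensory neurons, and Mef2c in neurons and blood vessels.

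The libraries held 13093226 to 39804240 counted reads with a median of 18222720. Those of EBs from 2iL were the deepest, at 31055159 to 39804240, against 13093226 to 37071102 in the rest. Levels are given as CPM, the reads of a gene scaled to the total counted in its library. The upper limit that a count of 0 allows, 3 reads, corresponded to 0.165 CPM in the median library. Intervals and limits cover counting error only. In bulk RNA, fewer cells of a type and less RNA per cell cannot be told apart.

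Promoter sequence from RefSeq (GRCm38.p6, 250 bases before to 50 bases after a gene start) matched 7 of the 10 members in 10 windows. The entries were for Tnnt2, Myh6, Myl7, Nkx2-5, Mef2c, Isl1 and Hand2. The letters AGATAA, which GATA factors can bind, were searched on both strands and stood in 11.2% of all 32851 windows of this length. They stood in 3 of the 10 member windows, shown here with the match in capitals because they belong to 1 gene of each group of members.
Hand2, chr8:57320733-57321032, + strand: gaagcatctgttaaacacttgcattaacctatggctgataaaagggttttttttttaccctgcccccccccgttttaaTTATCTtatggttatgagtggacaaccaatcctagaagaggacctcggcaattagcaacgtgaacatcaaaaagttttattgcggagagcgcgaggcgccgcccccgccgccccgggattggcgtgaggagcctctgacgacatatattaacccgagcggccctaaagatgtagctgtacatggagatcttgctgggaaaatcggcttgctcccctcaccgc
Isl1, chr13:116309639-116309938, - strand: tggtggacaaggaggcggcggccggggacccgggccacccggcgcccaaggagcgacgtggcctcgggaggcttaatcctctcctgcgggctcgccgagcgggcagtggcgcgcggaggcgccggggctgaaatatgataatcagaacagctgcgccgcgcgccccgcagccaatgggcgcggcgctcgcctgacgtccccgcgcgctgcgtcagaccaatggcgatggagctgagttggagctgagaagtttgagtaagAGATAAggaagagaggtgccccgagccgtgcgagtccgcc
Tnnt2, chr1:135836084-135836383, + strand: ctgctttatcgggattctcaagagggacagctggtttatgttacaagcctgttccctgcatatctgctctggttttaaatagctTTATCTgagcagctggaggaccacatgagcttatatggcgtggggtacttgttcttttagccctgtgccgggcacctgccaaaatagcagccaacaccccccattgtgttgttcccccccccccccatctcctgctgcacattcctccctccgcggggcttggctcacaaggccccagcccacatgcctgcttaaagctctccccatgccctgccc
The first letter of the match lay 172 bases before the annotated start in Hand2, 166 bases before it in Tnnt2 and 10 bases after it in Isl1. The E-box letters CANNTG, bound by basic helix-loop-helix factors such as Hand1 and Hand2, stood in 9 of the 10 windows and in 72.3% of all windows. The Nkx2-5 letters AAGTG stood in 6 of the 10 and in 46.4% of all, and the TATA box letters TATAAA in 3 of the 10, those of Mef2c and Myh6, and in 13.6% of all. The T-box letters GGTGTGA stood in none of the 10 and in 3.98% of all. These matches describe the letters of the windows and identify no bound site.

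The contractile members were low in every library, with Tnnt2 below 1 CPM throughout and Myh6 at most 8.84 CPM. Tnnt2, cardiac troponin T, reached at most 0.932 CPM, in a day 0 library of 2iL ESCs, and held 3 reads or fewer in 30 of the 45 libraries. In EBs at day 7 it stood at 0.479 CPM from 2iL and at 0 from SL, where a count of 0 allows up to 3 reads. The levels at day 0, 0.208 to 0.932 CPM, spanned those of the later libraries that held more than 3 reads of it, other than EBs from 2iL at day 1.5 with 0.200 CPM.

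Myl7, the atrial myosin light chain, ranged from 0.0525 to 1.49 CPM with its highest level again at day 0. In EBs at day 7 it stood at 0.559 CPM from 2iL and 0.149 CPM from SL. Its lowest levels were in FA at day 7, 0.0527 CPM from 2iL and 0.0525 CPM from SL, each worth 1 read.

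Myh6, the alpha myosin heavy chain, was the most abundant contractile member and stood above 1 CPM in 42 of the 45 libraries. In EBs it went from 1.84 CPM at day 1 to 5.83 CPM at day 2 in cells from 2iL and from 1.55 CPM to 4.86 CPM at day 2.5 in cells from SL. By day 7 it was back at 2.77 and 2.23 CPM. The highest level of the series, 8.84 CPM, was in serum-free culture from SL at day 7, and not in EBs. Myh6 lies beside Myh7, whose coding sequence is closely similar, so the share of reads between these 2 genes is uncertain.

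**Figure D1:**
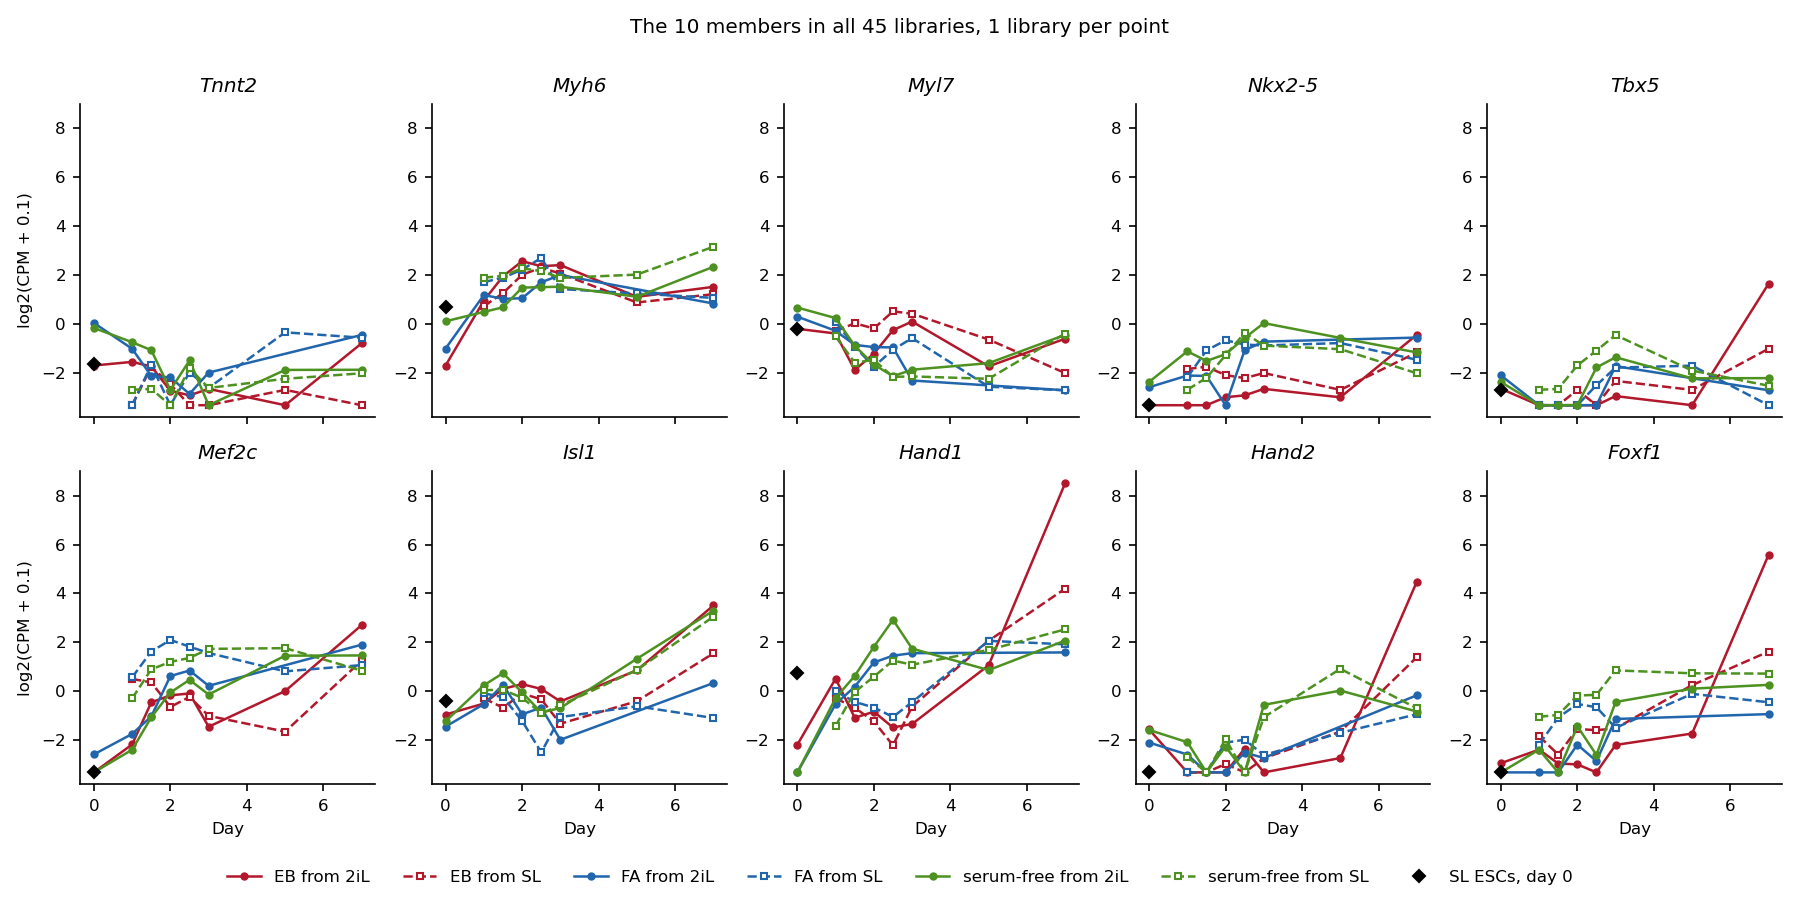
Levels of the 10 members by day, as log2(CPM + 0.1), with 1 library per point; colour gives the condition, filled circles and solid lines 2iL, open squares and dashed lines SL, and the black diamond the SL ESCs at day 0. Hand1, Hand2 and Foxf1 rose steeply in EBs at day 7, to 364, 22.3 and 47.8 CPM from 2iL, while Tnnt2 and Nkx2-5 stayed below 1 CPM in every library.

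The other genes of the contractile apparatus were read from a list of 20 sarcomere and calcium handling genes. Tpm1, a tropomyosin of many cell types, and Atp2a2, the calcium pump of the endoplasmic reticulum, carried most of its reads, at 828 and 249 CPM in EBs from 2iL at day 7. Of the 20, 6 were below 1 CPM in both day 7 EB libraries, and 3 of them, Pln, Nppa and Smpx, had no read in either. These 3 genes, which encode phospholamban, atrial natriuretic peptide and a small muscle protein, were picked for naming after their values were seen. The summed level of the list in EBs at day 7, 1138 CPM from 2iL and 614 CPM from SL, was below that in FA at day 7, 1396 and 1423 CPM.

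Within that list, 5 of the 14 genes that passed the filter on low counts rose in EBs from day 5 to day 7 and none fell, with a median log2 fold change of 0.76 against 0.0015 over all 15738 genes tested. Tpm1 rose by 0.80 (adjusted p = 0.018), while Atp2a2 stood at -0.03, Ttn, the giant spring of the sarcomere, at -0.58 and Actc1, cardiac actin, at -0.04, none of which passed. The others that rose were Myh7 (3.46), Myl4 (2.59), Tnnc1 (1.91) and Ryr2 (1.41), named here after their values were seen. Myh7 reached 8.63 CPM from 2iL and 6.84 CPM from SL.

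**Figure D2:**
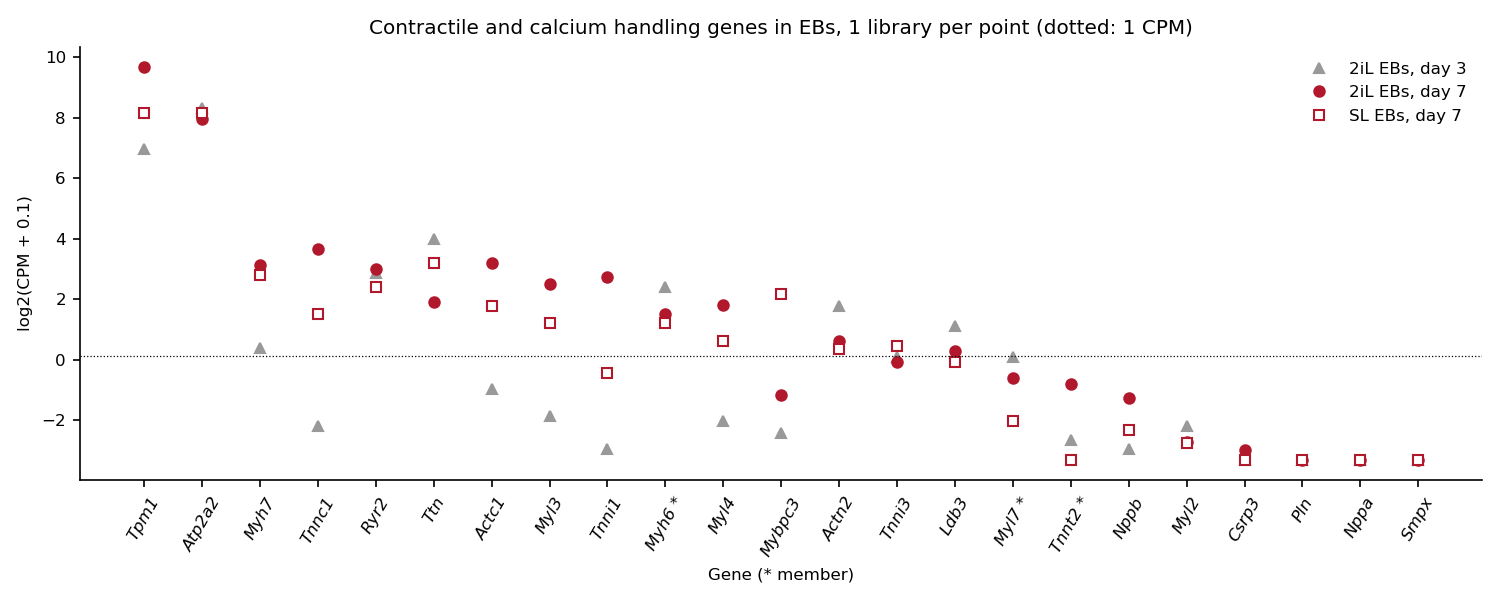
Levels of the 3 contractile members (asterisks) and the 20 listed sarcomere and calcium handling genes in EBs, as log2(CPM + 0.1), ordered by their mean at day 7; triangles are EBs from 2iL at day 3, filled circles from 2iL at day 7 and open squares from SL at day 7. Tpm1 and Atp2a2 stood far above the rest, and Tnnt2, Myl7 and 6 listed genes stood below 1 CPM at day 7 in both media.

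The question of when the members came on in EBs was asked by comparing day 7 with day 5. Hand1, Hand2, Foxf1, Isl1, Mef2c and Nkx2-5 rose, which is 6 of the 8 members that passed the filter on low counts, and Myh6 and Myl7 did not pass. Tnnt2 and Tbx5 held too few reads to enter the test. Over all genes, 17.0% were called in either direction and 9.88% as higher, by the quasi-likelihood test of edgeR, with p-values adjusted after Benjamini and Hochberg over 15738 genes and called at 0.05. Each of the 6 was higher at day 7 than at day 5 in both media.

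Hand1 gave the highest level of any member. In EBs from 2iL its levels on days 1, 1.5, 2, 2.5, 3, 5 and 7 were 1.33, 0.371, 0.459, 0.258, 0.295, 1.98 and 364 CPM. In EBs from SL the same days gave 0.717, 0.526, 0.324, 0.116, 0.546, 4.08 and 18.2 CPM. Both day 7 values lay above those of all 43 other libraries, of which the highest was 7.47 CPM, in serum-free culture from 2iL at day 2.5.

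From day 5 to day 7 the ratio of the Hand1 levels was 183 from 2iL (95% counting interval 147 to 232) and 4.46 from SL (3.47 to 5.79). The fitted log2 fold change over both media was 5.27 (SE 0.76, adjusted p = 0.0012, edgeR).

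Foxf1 stayed at or below 0.201 CPM in EBs from 2iL through day 5 and then reached 47.8 CPM at day 7. In EBs from SL its levels on days 3, 5 and 7 were 0.248, 1.09 and 2.97 CPM. Both day 7 values were above the highest of the other 43 libraries, 1.70 CPM in serum-free culture from SL at day 3. Day 7 exceeded day 5 by a fitted log2 fold change of 4.95 (SE 0.85, adjusted p = 0.0029, edgeR).

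Hand2 was nearly absent from EBs until day 7. In EBs from 2iL it had no read at days 1, 1.5, 2 and 3, stood at 0.0966 CPM at day 2.5 and 0.0503 CPM at day 5, and reached 22.3 CPM at day 7. In EBs from SL it had no read at days 1, 1.5 and 2.5 and gave 0.0496, 0.218 and 2.53 CPM on days 3, 5 and 7. These 2 day 7 values exceeded the highest other value, 1.78 CPM in serum-free culture from SL at day 5. Day 7 exceeded day 5 by a log2 fold change of 6.63 (SE 1.10, adjusted p = 0.00066, edgeR), and the level at day 5 from 2iL rested on 2 reads.

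Per kilobase of annotated exon, the order of the levels in EBs at day 7 was the same for these members in both media. From 2iL, Hand1 gave 182 CPM per kb, Foxf1 19.8, Hand2 9.48 and Isl1 2.84. From SL they gave 9.11, 1.23, 1.08 and 0.714 CPM per kb, and with 1 library per medium no spread is available to separate neighbours such as Foxf1 and Hand2.

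Isl1, a factor of the second heart field, rose in EBs from 1.71 CPM at day 5 to 11.3 CPM at day 7 from 2iL and from 0.653 to 2.83 CPM from SL. The log2 fold change was 2.51 (SE 0.40, adjusted p = 0.00041, edgeR). Unlike for Hand1, Hand2 and Foxf1, the day 7 EB levels of Isl1 overlapped those of serum-free culture, 9.70 CPM from 2iL and 8.18 CPM from SL.

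Mef2c, a MADS box factor of heart and vessels, rose in EBs from 0.904 to 6.42 CPM from 2iL and from 0.218 to 2.28 CPM from SL (log2 fold change 2.93, SE 0.75, adjusted p = 0.011, edgeR). Its day 7 level from SL lay within the range of the other conditions, 1.66 to 3.64 CPM in the 7 FA and serum-free libraries of days 5 and 7.

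Nkx2-5, an early marker of heart progenitors, was called as higher at day 7 than at day 5 (log2 fold change 3.71, SE 1.23, adjusted p = 0.0091, edgeR) at very low levels. It went from 0.0251 to 0.639 CPM from 2iL, or 1 read to 24, and from 0.0544 to 0.347 CPM from SL, or 1 read to 7. The FA and serum-free libraries of days 5 and 7 ranged from 0.147 to 0.580 CPM, so the day 7 EB level lay just above that range from 2iL and within it from SL.

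Tbx5, a factor of the first heart field and the limb, lay below the filter and was also highest in EBs from 2iL at day 7. It had no read in EBs from 2iL at day 5 and 3.04 CPM (114 reads) at day 7, at least 40.3-fold higher when the day 5 library is set at 3 reads. From SL it went from 1 read to 8, a ratio of 7.29 with a counting interval of 0.977 to 323. In the 43 libraries other than the day 7 EBs it was at or below 0.631 CPM, a range that takes in the day 7 EBs from SL at 0.397 CPM. With no filter on low counts it was called, at a log2 fold change of 6.18 (adjusted p = 0.0040, edgeR).

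How far these calls rest on single libraries was measured by leaving out each in turn. Without EBs from 2iL at day 7, 3 members were still called, Hand1, Hand2 and Isl1, while Foxf1 stood at a log2 fold change of 1.67 (adjusted p = 0.11), Mef2c to 2.45 (0.21) and Nkx2-5 to 2.47 (0.28). Without EBs from 2iL at day 5, 1 member was called, Isl1, with Hand1 at 2.66 (adjusted p = 0.087) and Hand2 at 3.69 (0.069). Without EBs from SL at day 5, Mef2c stood at 2.60 (adjusted p = 0.095). All 6 kept a positive sign in each of these fits, by edgeR with the dispersion trend of the full fit kept. The number of all genes called also moved between these fits, and its range is given in the closing section. In a model without medium terms Mef2c (adjusted p = 0.13) and Nkx2-5 (0.10) were not called, and with the libraries of days 3, 5 and 7 alone Foxf1 was not (0.055).

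Other genes of the same tissues moved at the same time. Of 14 tested genes of a list of other heart transcription factors, 10 rose and none fell from day 5 to day 7 in EBs, with a median log2 fold change of 1.80. Tbx20, a T-box factor of the heart, rose by 3.46 on the log2 scale, to 131 CPM from 2iL and 12.7 CPM from SL. Mef2a rose by 0.41, and Mef2d (0.07) and Srf (-0.21), which are active in most cell types, did not pass.

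Of 13 tested genes of a list of lateral plate, second heart field and extraembryonic mesoderm, 10 rose and 1 fell, with a median of 2.57. Bmp4, a signal that promotes lateral and extraembryonic mesoderm, rose by 3.20 to 56.1 CPM from 2iL and 6.40 CPM from SL. Fgf10, a growth factor of the second heart field, rose by 2.31, whereas Fgf8 stood at -0.25. Of 8 tested genes of blood and endothelium, 5 rose, with a median of 2.02; among them were Tal1 (3.69), Pecam1 (1.83) and Lmo2 (1.48), and Runx1 stood at 2.09 (adjusted p = 0.058). These lists were chosen with earlier results of the data known, so their counts are no independent evidence of a direction.

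Genes of early mesoderm were read in the same EBs, with no test of their timing against that of the members. T, the primitive streak factor Brachyury, gave 0.854, 370 and 73.1 CPM on days 3, 5 and 7 in EBs from 2iL, and 1.09, 44.7 and 56.2 CPM in EBs from SL. Eomes reached 266 CPM at day 5 from 2iL and was at 54.7 CPM at day 7. Between days 5 and 7, 2 of the 10 tested early mesoderm genes fell, Eomes (-1.57) and Mixl1 (-2.12), the latter named after its value was seen, and 1 rose, Kdr, the receptor that marks mesoderm with vessel and heart fates (2.82). Kdr went from 8.62 to 140 CPM from 2iL and from 10.6 to 30.1 CPM from SL.

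**Figure D3:**
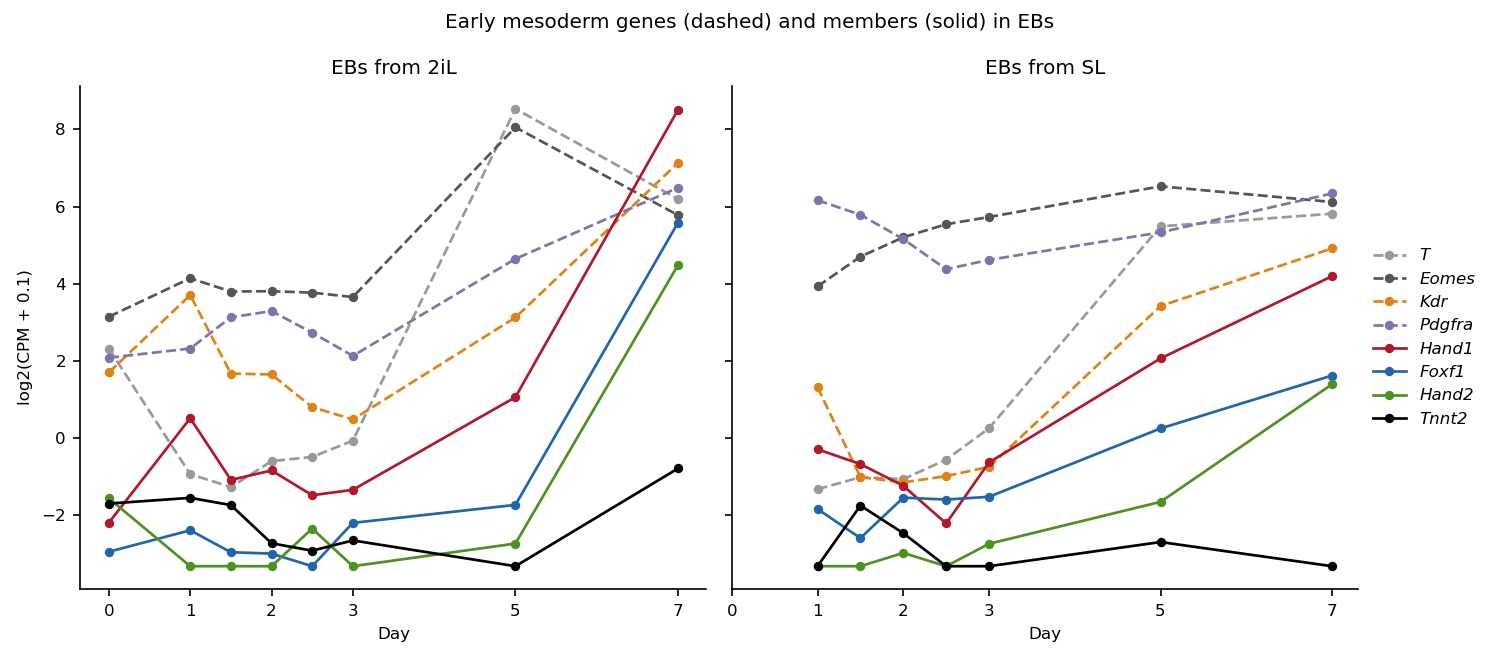
Levels of 4 early mesoderm genes (dashed) and 4 members (solid) in EBs from 2iL and from SL by day, as log2(CPM + 0.1), with 1 library per point; the SL ESCs of day 0 are not drawn. T and Eomes were highest at day 5 in EBs from 2iL, at 370 and 266 CPM, Hand1, Foxf1 and Hand2 at day 7, and Tnnt2 stayed below 1 CPM.

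Genes of other cell types also moved in the EBs between days 5 and 7. Of 7 tested genes of neural progenitors, 5 rose and 1 fell, with a median of 2.46; Sox1, an early neural factor, rose by 3.16 to 14.16 CPM from 2iL and 45.5 CPM from SL, and Nes, an intermediate filament of progenitors, fell by 1.36. Of 8 tested trophoblast genes, which matter here because Hand1 is also a trophoblast gene, 5 rose and none fell, with a median of 1.16. The summed level of the 10 listed trophoblast genes went from 365 to 961 CPM from 2iL and from 420 to 716 CPM from SL. It was as high in serum-free culture at day 7, 1097 and 1204 CPM, where Hand1 stood at 4.10 and 5.67 CPM. Most of that sum was Krt8 and Krt18, keratins of many epithelia. Cdx2, a factor of trophoblast that also serves in posterior mesoderm and gut, rose by 2.46, from 5.25 to 31.6 CPM from 2iL and from 2.34 to 10.8 CPM from SL. Named after their values were seen, Plac1 rose by 3.24 to 5.09 and 2.03 CPM and Krt7 by 1.45 to 3.81 and 15.9 CPM, while Elf5 stood at 0.186 and 0.347 CPM and Prl3d1 had no read in the day 7 EBs. The summed level of 10 endoderm genes at day 7 was 179 CPM in EBs from 2iL and 1694 CPM in EBs from SL. That of 6 genes of undifferentiated cells was 150 and 299 CPM. The part of these other cell types in the members' values was not tested.

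The members were also compared at earlier days in EBs. Between days 1 to 2 and day 3, 1 of the 8 tested members changed, Myh6, which rose by 0.61 on the log2 scale (SE 0.20, adjusted p = 0.019, edgeR), against 43.9% of all genes. Without the day 3 library of either medium this call was lost, with adjusted p = 0.15 and 0.14. Leaving out EBs from 2iL at day 1 gave 3 members called, and leaving out the day 7 EBs of either medium or those from SL at day 1.5 gave 2. These counts took in all 8 tested members, Hand2 included. The range of all genes called over the fits that left out a library is given in the closing section. For Hand2 the change could not be estimated because the EB libraries of days 1 and 1.5 held no read of it, though it is counted among the 8.

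Against day 3, the mean of days 5 and 7 in EBs was higher for 5 members and lower for 2, with 44.0% of all genes called. Those higher were Hand1 (log2 fold change 5.85), Hand2 (5.57), Foxf1 (4.37), Isl1 (2.53) and Mef2c (2.21). Those lower were Myh6 (-1.11, SE 0.22, adjusted p = 0.00046) and Myl7 (-1.60, SE 0.45, adjusted p = 0.0072), by edgeR. Nkx2-5 (0.51) did not pass, and Tnnt2 and Tbx5 were not tested. Leaving out a library also moved the number of all genes called, with the range given in the closing section. Without EBs from 2iL at day 3, 3 members were called, and Hand2 stood at 2.64 (adjusted p = 0.35), Foxf1 at 2.74 (0.19), Mef2c at 0.89 (0.61) and Myl7 at -1.87 (0.061). Myl7 was also lost without EBs from SL at day 3 (-1.38, adjusted p = 0.086), and Mef2c without EBs from 2iL at day 5 (1.79, 0.20) or day 7 (2.02, 0.070).

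Whether the members were particular to EBs was asked against FA and against serum-free culture at days 5 and 7. Against FA, 4 of the 8 tested members were higher in EBs and none lower, with 28.4% of all genes called in either direction. They were Myl7 (3.04, SE 1.04, adjusted p = 0.0087), Foxf1 (2.37, SE 0.84, adjusted p = 0.047), Hand1 (2.29, SE 0.68, adjusted p = 0.028) and Isl1 (1.79, SE 0.42, adjusted p = 0.0029). The difference for Myl7 arose at under 1 CPM in both conditions, with 1 read in each FA library of day 7 and 3 in EBs from SL at day 7. Its size is therefore uncertain. Over the 17 fits that left out a library, 2772 to 4729 of all genes were called. Without EBs from 2iL at day 7, 2 members were called, and Hand1 stood at 0.57 (adjusted p = 0.37), Foxf1 at 0.42 (0.59) and Myl7 at 2.16 (0.066). Without EBs from SL at day 5, Hand1 stood at 0.79 (0.38) and Foxf1 at 0.55 (0.64), and without FA from 2iL at day 7 at 1.27 (0.49) and 1.94 (0.36). Foxf1 was also lost, at adjusted p = 0.055 each, when FA at day 3 from either medium, FA from SL at day 7, or EBs at day 1.5 or 2 from either medium were left out alone. Without EBs from SL at day 7, Hand2 passed as well (2.51, adjusted p = 0.025). Foxf1 was not called with no filter on low counts (adjusted p = 0.051), without medium terms (0.13) or with the libraries of days 3, 5 and 7 alone (0.18), where Hand1 was lost too (0.15).

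Because the members changed so much between days 5 and 7, day 7 was also compared alone, a choice made after seeing the data. Hand1 was then higher in EBs than in FA by 5.20 on the log2 scale (SE 0.77, adjusted p = 0.00062), Foxf1 by 5.13 (SE 0.92, adjusted p = 0.0012) and Hand2 by 3.82 (SE 0.77, adjusted p = 0.0043), by edgeR. Isl1 (3.01) and Myl7 (3.01) were higher too, which made 5 of 8 members against 17.6% of all genes. Myl7 held 1 read in each FA library of that day. Nkx2-5 (0.34), Mef2c (0.47) and Myh6 (0.45) did not pass. These comparisons use the same 2 day 7 EB libraries as that with day 5. In FA at day 7, Hand1 was at 2.90 CPM from 2iL and 3.68 CPM from SL, Foxf1 at 0.422 and 0.630 CPM and Hand2 at 0.791 and 0.420 CPM, so neither medium overlapped with the EBs.

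Against serum-free culture over days 5 and 7, Hand1 was higher in EBs (2.46, SE 0.58, adjusted p = 0.0024), and Myh6 (-1.10, SE 0.18, adjusted p = 7.2e-05) and Isl1 (-0.90, SE 0.28, adjusted p = 0.012) were lower, by edgeR, with 52.4% of all genes called. Without EBs from 2iL at day 7, Hand1 stood at 0.74 (adjusted p = 0.11), and without EBs from SL at day 5 at 0.96 (0.15). Isl1 was lost without EBs from 2iL at day 5 (adjusted p = 0.081), EBs from SL at day 7 (0.093) or serum-free from 2iL at day 5 (0.053). Foxf1 passed as higher in EBs without EBs from 2iL at day 5 (2.25, adjusted p = 0.0015) or EBs from SL at day 7 (2.33, 3.9e-05), and turned sign without EBs from 2iL at day 7 (-0.64, 0.20) or EBs from SL at day 5 (-0.52, 0.49).

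At day 7 alone, Hand1 (4.59, SE 0.76), Hand2 (3.97, SE 0.83) and Foxf1 (3.73, SE 0.81) were higher in EBs than in serum-free culture with adjusted p = 0.00045, 0.0018 and 0.0027, and Myh6 was lower (-1.49, SE 0.25, adjusted p = 0.00022), by edgeR. This made 4 of 8 members against 37.4% of all genes. Isl1 (-0.70) did not pass at day 7 alone. In serum-free culture at day 7, Foxf1 was at 1.10 CPM from 2iL and 1.55 from SL and Hand2 at 0.462 and 0.516 CPM.

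**Figure D4:**
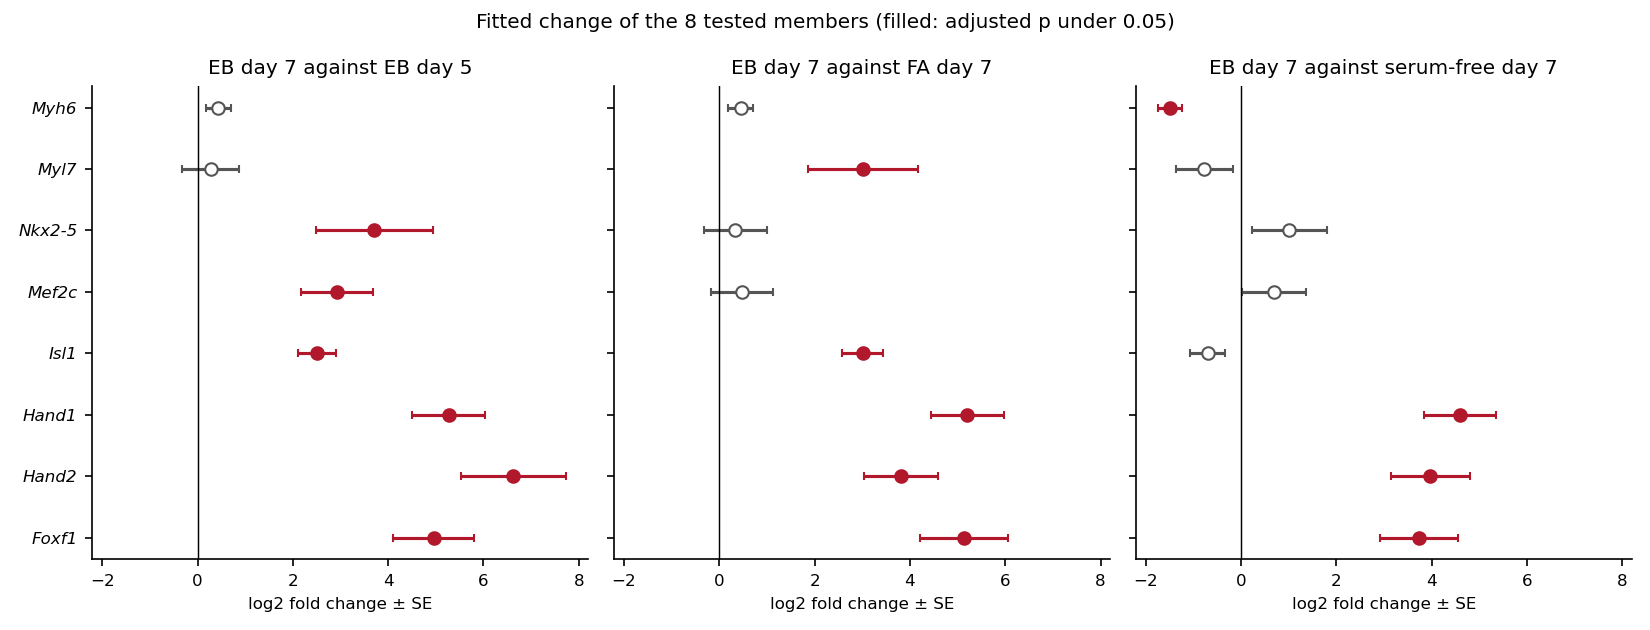
Fitted log2 fold changes with SE (bars) of the 8 tested members for EBs at day 7 against EBs at day 5, FA at day 7 and serum-free culture at day 7; filled red points have an adjusted p under 0.05. Hand1, Hand2 and Foxf1 were higher in all 3 comparisons, by 3.73 to 6.63, and Myh6 stood at -1.49 against serum-free culture.

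FA was also compared with serum-free culture. Over days 5 and 7, 3 of 8 members were lower in FA, a count near the 37.8% of all genes called in either direction. They were Isl1 (-2.68, SE 0.41, adjusted p = 4.5e-05), Myl7 (-2.99, SE 1.06, adjusted p = 0.011) and Myh6 (-1.13, SE 0.23, adjusted p = 0.00089), by edgeR. Myl7 held 1 read in each FA library of day 7, so the size of its difference is uncertain. At day 7, Isl1 was at 1.16 CPM from 2iL and 0.368 CPM from SL in FA. Of 10 genes of neurons and motor neurons, 6 were lower in FA than in serum-free culture and 1 was higher, and their summed level at day 7 was 333 to 558 CPM in serum-free culture, 199 to 310 CPM in FA and 51.8 to 78.0 CPM in EBs. Tubb3, a tubulin of neurons, stood at 200.7 and 121 CPM in serum-free culture at day 7. The part of neurons in the Isl1 level was not tested. Without serum-free from 2iL at day 5, the Myl7 call was lost (adjusted p = 0.060).

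The timing was compared between conditions as the late change, the log2 difference from days 1 to 2 to days 5 and 7. This change in EBs minus that in serum-free culture was 3.47 for Hand1 (SE 0.94, adjusted p = 0.0089) and -1.11 for Myh6 (SE 0.24, adjusted p = 0.0016), by edgeR. That made 2 of the 8 tested members against 36.5% of all genes. For Hand2 the late change in EBs could not be estimated, because the EB libraries of days 1 and 1.5 held no read of it. It is still counted among the 8 members in these comparisons. Myh6 went from 1.55 to 5.83 CPM at days 1 to 2 to 1.74 to 2.77 CPM at days 5 and 7 in EBs, and from 1.31 to 4.75 CPM to 2.07 to 8.84 CPM in serum-free culture. Minus that in FA, the late change in EBs was called for Myl7 alone among the members, at 2.86 (SE 1.09, adjusted p = 0.039), against 14.5% of all genes. Myl7 stood at 0.199 to 0.960 CPM and then 0.0525 to 0.0690 CPM in FA, and at 0.171 to 0.921 CPM and then 0.149 to 0.559 CPM in EBs. DESeq2 did not call Myl7 (adjusted p = 0.088) and called Hand1 (3.08, adjusted p = 0.015), and Myl7 was also lost with no filter on low counts (0.063), without medium terms (0.17) and at day 7 alone (0.066). The call for Myl7 was lost, at adjusted p of 0.051 to 0.15, when any of the 5 FA libraries of days 3 to 7, EBs from 2iL at day 1.5, 2 or 7 or EBs from SL at day 1, 2 or 5 were left out alone, and that for Hand1 without EBs from SL at day 5 (1.97, adjusted p = 0.061). Against FA, 4 members were called without EBs from SL at day 7 and 2 without EBs from 2iL at day 5. These counts took in all 8 tested members, Hand2 included. Over the 17 fits against FA that left out a library, 1305 to 2623 of all genes were called. At day 7 alone, the late change in EBs exceeded that in FA for Hand1 (5.89, adjusted p = 0.0025) and Isl1 (2.68, adjusted p = 0.0025), by edgeR, which made 2 of 8 members against 13.5% of all genes.

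Whether the starting medium mattered was asked over days 3 to 7 within each condition. In EBs, 1 of 8 members differed, Isl1, higher from 2iL by 1.62 on the log2 scale (SE 0.36, adjusted p = 0.0065, edgeR), against 12.3% of all genes. Isl1 was higher from 2iL on all 3 days, at 0.648 against 0.298 CPM at day 3, 1.71 against 0.653 at day 5 and 11.3 against 2.83 at day 7. The day 3 ratio, 2.18 (counting interval 0.856 to 6.56), was within counting error. The ratios at days 5 and 7 were 2.62 (1.405 to 5.31) and 3.985 (3.02 to 5.35). The call was lost without the day 7 EB library from 2iL (1.27, adjusted p = 0.13) or from SL (1.27, 0.12), by edgeR. Either fit takes day 7 out of the comparison of media, so they are the same check.

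For Hand1 and Foxf1 the media changed order between days. Hand1 was lower from 2iL than from SL at day 5, with a ratio of 0.486 (counting interval 0.350 to 0.676), and higher at day 7, with a ratio of 20.0 (18.0 to 22.3). Foxf1 stood at a ratio of 0.185 at day 5 (0.0703 to 0.438) and 16.1 at day 7 (12.4 to 21.2). These ratios compare pairs of libraries, with no replicate check. Hand2 at day 7 had a ratio of 8.81 (6.64 to 11.9), Tbx5 7.65 (3.75 to 18.2) and Mef2c 2.81 (2.05 to 3.94), while Nkx2-5 at 1.84 (0.770 to 5.06) was within counting error.

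Over days 3 to 7 the fitted difference between the media was 1.58 for Hand1 (adjusted p = 0.28), 2.14 for Hand2 (0.15), 1.22 for Foxf1 (0.45) and 1.16 for Mef2c (0.28), by edgeR, and none passed. Without EBs from 2iL at day 7, no member passed and the sign turned for Hand1 (-0.99), Hand2 (-2.15) and Foxf1 (-1.94). The values without EBs from SL at day 7 were -0.99, -2.16 and -1.94. Leaving out either library of a day takes that day out of the comparison of media, so these are the same check. Without the day 5 library of either medium, Hand1 (3.55), Hand2 (2.90) and Foxf1 (3.15) passed beside Isl1, 4 members in all. Over the 12 fits that left out a library, 1097 to 2087 of all genes were called.

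In FA and in serum-free culture no member differed between the media over days 3 to 7 by edgeR, against 2.89% and 1.58% of all genes. By an unadjusted p under 0.05, Myh6 in serum-free culture was the 1 member, lower from 2iL by -0.64 (SE 0.21, adjusted p = 0.14), and DESeq2 called no member in either condition. No member passed the test of the difference between the 2iL effect in EBs and in the other conditions by edgeR, against 2.59% of all genes, or by DESeq2. Isl1 was the 1 member with an unadjusted p under 0.05 (1.19, SE 0.50, adjusted p = 0.20).

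Day 0 levels are given here for Hand1, Mef2c and Isl1. Hand1 was at 1.59 CPM in SL ESCs and at 0 to 0.119 CPM in the 3 libraries of 2iL ESCs. Mef2c was at 0 in SL and at 0 to 0.0665 CPM in 2iL, and Isl1 at 0.658 CPM in SL and 0.266 to 0.416 CPM in 2iL. With 1 SL library at day 0 these are values without a test.

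In FA and serum-free culture the low levels of the lateral mesoderm members were not flat. Hand1 in serum-free culture from 2iL went from 0.722 CPM at day 1 to 7.47 CPM at day 2.5 and was back at 1.72 CPM at day 5. Foxf1 in serum-free culture from SL was at 0.384 CPM at day 1 and at 1.70, 1.56 and 1.55 CPM at days 3, 5 and 7. At days 3 and 5, Mef2c stood at 0.810 to 3.29 CPM in the 7 FA and serum-free libraries and at 0.218 to 0.904 CPM in the EBs, with 1 of the 7 overlapping. Hand2 reached 1 CPM outside the day 7 EBs in 1 library.

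Non-coding genes whose start lies within 5 kb of a member's start were read as well, since the counting used strand. Fendrr, a long non-coding RNA that starts next to Foxf1 on the opposite strand, reached 4.53 CPM in EBs from 2iL at day 7 and 0.198 CPM in EBs from SL at day 7, and at most 0.174 CPM in all other libraries. The library with the highest Fendrr level, EBs from 2iL at day 7, was also that with the highest Foxf1. Fendrr in EBs from SL at day 7 was near 0.149 CPM, the upper limit that a count of 0 allows there. Serum-free culture from 2iL gave 0.174 CPM at day 3 and 0.172 CPM at day 5. The order of these lower Fendrr levels rests on few reads. Mhrt beside Myh6, Hand2os1 beside Hand2 and Gm43050 beside Tbx5 were listed at 0 reads in all 45 libraries, and Gm27530 beside Foxf1 had at most 0.0525 CPM.

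Across the 45 libraries, the members most alike by Pearson correlation of log2(CPM + 0.1) were Hand2 and Foxf1 (r = 0.796), Tbx5 and Foxf1 (0.752), Hand1 and Foxf1 (0.740) and Tbx5 and Hand2 (0.701). These correlations share the day 7 EB library from 2iL, in which all 4 genes were highest. Of the 15328 genes with at least 1 CPM in 3 or more libraries, those most like a member were Pmp22 for Hand1 (0.872), Tgfb2 for Hand2 (0.856), Nrp1 for Foxf1 (0.854), Foxf1 for Tbx5 (0.752), Vasn for Mef2c (0.834), Serpinb9f for Isl1 (0.780), Ajap1 for Nkx2-5 (0.794), Mertk for Myh6 (0.795), Trim25 for Myl7 (0.751) and Spsb1 for Tnnt2 (0.691). Among the contractile members, r was -0.479 between Tnnt2 and Myh6 and -0.189 between Myh6 and Myl7. Tnnt2 held 3 reads or fewer in most libraries, so its correlations, that with Spsb1 included, say little about likeness.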

How the data were processed

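Total RNA depleted of ribosomal RNA was sequenced with a directional library kit. Per the study's methods the authors trimmed the reads with TrimGalore, aligned them to GRCm38 with TopHat2 allowing 1 mismatch against Ensembl release 82, and counted them by strand with featureCounts. The authors deposited these as raw counts, 1 table per library, with no normalization. Rows without a gene symbol took at most 0.0014% of the reads.

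The members and lists were chosen with earlier results of these data known. CPM was computed over the library total, and Wilson 95% intervals were computed for single libraries; ratios of 2 libraries carry exact binomial intervals. Named genes were the 10 members, for each list up to 4 tested genes with the highest mean CPM in EBs at days 5 and 7, genes most like a member, and neighbouring non-coding genes; others are said to have been chosen after their values were seen. Some genes that the rule names are not reported here.

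The test was edgeR 4.0.16 (R 4.3.3) quasi-likelihood with TMM factors (0.843 to 1.11) on the 41 libraries of days 1 to 7. The model held a term for each condition and day and a 2iL against SL term for each condition in days 1 to 2.5 and in days 3 to 7, 27 coefficients leaving 14 residual degrees of freedom, so media and neighbouring days stand in for replicates. After filterByExpr, 15738 genes were tested and adjusted by Benjamini-Hochberg. Counts of 15576 genes were also simulated for EB against FA. Calls were made for 67 of 100 genes with a log2 change of 2 and 9 of 100 with a log2 change of 1. Of genes without change, 3 of 15376 were called. These rates hold for the simulated counts and do not give the rate of false calls in the real libraries. The medium term was the same across days 3 to 7, whereas the media changed order between days for Hand1 and Foxf1 in EBs. Alternatives were DESeq2 1.42.0, library totals, no filter, fewer libraries, no medium terms and leaving out each of 23 libraries, and, added after seeing the data, day 7 alone. Fits that left out a library kept the genes and the dispersion trend of the full fit, and covered the comparisons that use its condition.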

Additional observations from a re-analysis of the deposited data

Results flagged for a closer look

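The difference between conditions in the late change, from days 1 to 2 to days 5 and 7, passed the test for 3 pairs of member and condition. EBs minus serum-free culture gave 3.47 on the log2 scale for Hand1 and -1.11 for Myh6, 2 of 8 tested members against 36.5% of all genes. EBs minus FA gave 2.86 for Myl7, 1 of 8 against 14.5% of all genes. Neither count of members exceeded the share of all genes. The Myl7 call was lost in 15 of 22 alternatives, DESeq2 among them.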

How the results depend on the processing

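Over 40 results for single members and 783 alternative values, 663 kept their direction and their side of the threshold, 71 lost the call, 28 gained one and 21 turned sign. No paired analysis was possible because the labels give each medium, condition and day 1 library, so groups share no replicate numbers; the model compares the media within days through its day terms. Depth limited Tnnt2, Tbx5 and Nkx2-5, which rest on single reads in many libraries. Scaling to library totals moved the median of all genes by at most 0.10 on the log2 scale.

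The number of genes called moved by over 1.5 times in the following cases. Without medium terms it was 2049 for EB against FA, 3745 for FA against serum-free, 3967 for EB day 3 against days 1 to 2, 3898 for EB days 5 and 7 against day 3, 776 for EB day 7 against day 5, and 801 and 3088 for the late change in EB against FA and serum-free. With the libraries of days 3, 5 and 7 alone it was 1495 for EB day 7 against day 5, 738, 83 and 17 for 2iL against SL in EB, FA and serum-free, and 36 for the 2iL effect in EB against the other conditions. DESeq2 gave 719 and 492 for 2iL against SL in FA and serum-free and 666 for the 2iL effect, library totals gave 828 and 481 for the same media comparisons, and day 7 alone gave 2771 for EB against FA.

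Of the members, the libraries of days 3, 5 and 7 alone left 2 called for EB against FA, with 3224 of all 14995 genes tested called. They left 0 for 2iL against SL in EB. Without medium terms 0 were called for EB day 3, 0 for the late change against FA and 1 against serum-free. For the late change against FA, no filter on low counts left 0, and day 7 alone gave 2, against 13.5% of all genes. Against serum-free culture, day 7 alone gave 4, with 29.9% of all genes called. Hand2 in EB against serum-free, at -0.05 in the fit reported, turned to 0.48 by DESeq2, 0.037 with library totals, 0.50 without medium terms and 3.97 at day 7 alone. Foxf1 for 2iL against SL in EB turned to -0.0053 by DESeq2. Of the 30 genes most like a member, 3 for each, 8 were shared with a Spearman correlation and 9 with a pseudocount of 1 CPM.

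Leaving out 1 library at a time, the genes called ranged from 2772 to 4729 for EB against FA, 6709 to 8394 for EB against serum-free, 4013 to 5914 for FA against serum-free, 3110 to 7201 for EB day 3 against days 1 to 2, 3092 to 7063 for EB days 5 and 7 against day 3, 757 to 2920 for EB day 7 against day 5, 1097 to 2087, 111 to 455 and 20 to 249 for 2iL against SL in EB, FA and serum-free, 1305 to 2623 and 4428 to 5925 for the late change against FA and serum-free, and 104 to 924 for the 2iL effect. The members called ranged from 2 to 5, 2 to 3, 2 to 3, 0 to 3, 3 to 7, 1 to 6 and 0 to 4 in the first 7 of these, and from 0 to 4 and 1 to 3 for the late change. Members that turned sign ranged from -0.13 to 2.51 (Hand2, EB against FA), -1.25 to 1.40 (Hand2, EB against serum-free), -0.64 to 2.33 (Foxf1, EB against serum-free), -0.53 to 1.36 (Nkx2-5, EB days 5 and 7 against day 3), and, for 2iL against SL in EB, -0.99 to 3.55 (Hand1), -2.16 to 2.90 (Hand2) and -1.94 to 3.15 (Foxf1). The causes were not tested.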
